A study of Mus musculus with 2 samples.

Results

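Conventional CD4 T cells of the spleen, the T cells that carry the Cd4 co-receptor and are neither regulatory nor cytotoxic, made up 865 of the 16152 cells that passed the filters, 180 from PHZ and 685 from bleeding. A member had at least 1000 unique molecular identifiers (UMIs, each standing for 1 captured transcript), at least 300 genes, at most 10% mitochondrial UMIs and under 20% haemoglobin UMIs. It also had at least 2 UMIs of the CD3 genes Cd3d, Cd3e and Cd3g, at least 1 of Cd4, 0 of Cd8a and Cd8b1, 0 of Foxp3, at most 2 of Nkg7, Ccl5 and Klrd1, and at most 1 of Cd79a and Cd79b. The rule read these 12 genes only, so their levels describe the choice and are not results. The cells came from live spleen suspensions of C57BL/6 mice made anaemic over 1 month, either by PHZ injections (PHZ is the usual abbreviation of phenylhydrazine, a compound that damages red cells) or by repeated bleeding, at intervals of 3 days in both arms. Both groups were thus anaemic mice of the same strain, and untreated mice were not analysed here. Each treatment had 1 droplet-based single-cell RNA library, with the number of mice not given, so treatment, mouse and library cannot be told apart and no test between treatments was possible.

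CD4 T cells recognise peptide on MHC class II molecules and, once activated, help B cells, macrophages and CD8 T cells through cytokines and contact signals such as the CD40 ligand. Naive cells circulate between the blood and the T cell zones of the spleen and lymph nodes, held in a resting state by transcription factors such as Lef1, Tcf7, Foxp1 and Klf2, and enter the lymphoid tissue with the help of the chemokine receptor Ccr7. After activation they can become memory cells or helper subsets, which are told apart by their leading factors and cytokines: Th1 (Tbx21), Th2 (Gata3) and follicular helper cells (Bcl6).

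The median member held 7907.5 UMIs and 2776 genes in the PHZ library, against 7137 UMIs and 2532 genes in the bleeding library, and the summed UMIs outside haemoglobin were 1450628 in PHZ members and 5162541 in bleeding members. Members of the bleeding library therefore have the smaller counting error. Haemoglobin took a median of 0.781% of UMIs in PHZ members and 0.644% in bleeding members, close to each other, and mitochondrial genes took 3.37% and 3.28%. No barcode was shared between members of the PHZ and the bleeding library, while 16 barcodes were shared among all cells and 2 between a member of one library and another cell of the other. Just outside the rule lay 54 PHZ cells and 211 bleeding cells that met every other condition but had no Cd4 UMI, against 55 PHZ members and 255 bleeding members with exactly 1. The members are thus the cells in which Cd4 was detected. The other borders were less crowded: 15 PHZ and 66 bleeding cells missed the rule by 1 Cd8 UMI, and 2 PHZ and 22 bleeding cells by 1 Foxp3 UMI.

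The label was checked against Lef1 and Igfbp4, the markers that the rule did not read. Lef1, a factor of naive and memory-forming T cells, stood at 1354 CPM (UMIs scaled to a fixed total, over the summed UMIs outside haemoglobin) in PHZ members and 1512 CPM in bleeding members, against 40.6 CPM in PHZ B cells and 18.6 CPM in bleeding B cells. It was detected in 92.2% of PHZ members and 96.4% of bleeding members. Igfbp4, a secreted binding protein of insulin-like growth factors, stood at 336 and 245 CPM in PHZ and bleeding members and at 3.72 and 1.70 CPM in PHZ and bleeding B cells. Both markers were thus far above their B cell levels in members of both libraries, and the data do not go against the label. Lef1 was also high in other T cells described below, so this check does not tell conventional CD4 cells from other T cells.

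Of cells under 20% haemoglobin, conventional CD4 T cells were 5.54% in PHZ (180 of 3248 cells, exact Clopper-Pearson 95% interval 4.78% to 6.39%) and 10.1% in bleeding (685 of 6778 cells, 9.40% to 10.8%). The PHZ share was 0.548 of the bleeding share, with an exact conditional 95% interval of 0.463 to 0.647. These intervals, like all those below, cover counting error only. The intervals of share ratios treat cell counts as Poisson counts, which makes them too wide where a share is large. Other T cells stood lower too: the same ratio was 0.385 (0.271 to 0.535) for naive-like CD8 T cells and 0.512 (0.433 to 0.603) for T cells with cytotoxic genes, and for regulatory T cells it was 0.790 with an interval of 0.478 to 1.27 that includes 1. B cells, at 49.0% of PHZ cells and 51.5% of bleeding cells, had a ratio of 0.951 (0.895 to 1.01).

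Within T cells the share of conventional CD4 cells did not differ beyond counting error. They were 32.5% (28.6% to 36.6%) of the 554 PHZ cells with at least 2 CD3 UMIs and 30.03% (28.2% to 32.0%) of the 2281 such bleeding cells, a ratio of 1.08 (0.913 to 1.28). Of conventional CD4 and naive-like CD8 cells together, PHZ had 80.7% CD4 cells (74.9% to 85.7%) and bleeding 74.6% (71.7% to 77.4%). Against all cells that passed the filters, erythroid cells included, members were 2.79% of PHZ and 7.06% of bleeding cells (ratio 0.396). The order of the libraries is therefore a matter of the denominator: lower among all spleen cells in PHZ, and about even among T cells.

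**Figure D1:**
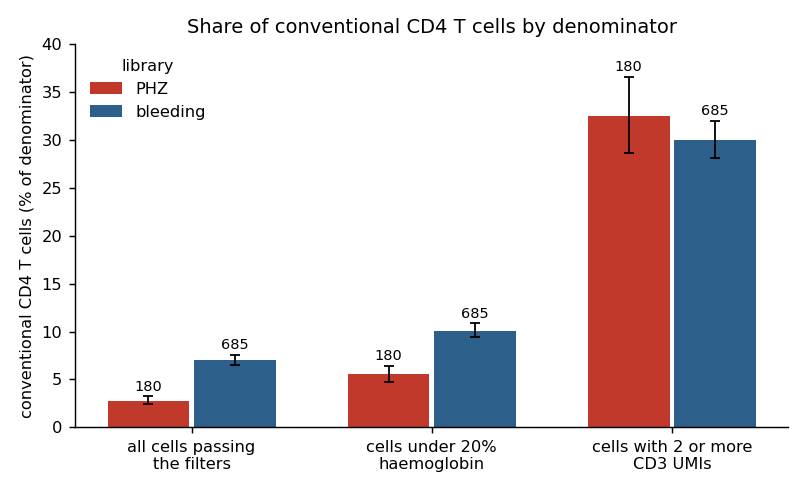
Share of conventional CD4 T cells (percent, with exact 95% intervals that cover counting error) in the PHZ and the bleeding library under 3 denominators, with the number of members above each bar. The PHZ bar is lower for all cells (2.79% and 7.06%) and for cells under 20% haemoglobin (5.54% and 10.1%), while for cells with CD3 UMIs the intervals overlap (32.5% and 30.03%).

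The members were next set against the other T cells of the same spleens, a comparison in which each library serves as a replicate. The naive-like CD8 group (43 PHZ cells and 233 bleeding cells) had Cd8a or Cd8b1 and no Cd4, the regulatory group (25 and 66 cells) had Cd4 and Foxp3, and the group with cytotoxic genes (181 and 738 cells) had 3 or more UMIs of Nkg7, Ccl5 and Klrd1 whatever its co-receptor. That last group also held resting CD8 cells, with Cd8b1 at 595 CPM in PHZ and 577 CPM in bleeding and Lef1 at 1073 and 1186 CPM. UMIs were summed per group and library, and edgeR's quasi-likelihood test was fitted over the 8 sums with the library as a term, with Benjamini-Hochberg adjustment over 10223 genes. With the library as a term, p-values rest on how far the differences between groups vary from one library to the other. The libraries are also the treatments, so nothing wider is measured. Conventional CD4 cells were higher for 150 genes (1.47% of those tested) and lower for 171 (1.67%) than naive-like CD8 cells.

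The genes that rose over naive-like CD8 cells included the master regulator of the CD4 lineage and several helper molecules. Zbtb7b (ThPOK, the factor that commits thymocytes to the CD4 lineage, chr3:89377644-89394776, minus strand, GRCm38) stood at 46.2 CPM in PHZ and 50.6 CPM in bleeding CD4 cells, and at 0 and 4.05 CPM in PHZ and bleeding CD8 cells. The fitted log2 difference was 3.803 ± 0.40 (SE, adjusted p = 0.00012). Cd40lg, the CD40 ligand through which helper cells license B cells (chrX:57212143-57224042, plus strand), stood at 80.7 and 96.7 CPM in PHZ and bleeding CD4 cells and at 13.1 and 7.21 CPM in CD8 cells (3.45 ± 0.36, adjusted p = 0.00010). The co-receptor Cd28 (216 and 238 CPM against 78.5 and 102 CPM) and Cd5, a brake on receptor signalling (303 and 330 CPM against 165 and 95.02 CPM), were higher by 1.30 ± 0.17 and 1.42 ± 0.23 on the log2 scale (adjusted p = 0.00074 and 0.0036). For Zbtb7b, Cd40lg, Cd28 and Cd5 both CD4 sums lay above both CD8 sums. Cd28, Cd5, and below Cd226, Satb1 and Tcf7, were chosen from the lists after their values were seen.

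The gene with the smallest p among those higher was St8sia6, a sialyltransferase, at 160 CPM in PHZ and 181 CPM in bleeding CD4 cells against 15.7 and 19.4 CPM in CD8 cells (3.18 ± 0.26, adjusted p = 1.8e-05). Izumo1r (folate receptor 4, 103 and 126 CPM against 28.8 and 16.2 CPM) and the transcription factor Maf (87.5 and 66.4 CPM against 13.1 and 4.50 CPM) followed, with log2 differences of 2.63 ± 0.26 and 3.48 ± 0.35. Ly6a (Sca-1), Myo10, Nxpe3, Tspan32 and Tesc completed the first 10. Of 23 genes of memory and activated T cells 5 were higher (Cd44, S100a4, S100a6, Cxcr3 and Maf) and 1 was lower (Cxcr6). The naive-like CD8 group was limited to at most 2 UMIs of Nkg7, Ccl5 and Klrd1. CD8 cells with more of these UMIs fell into the group with cytotoxic genes, so the count of memory genes is not independent of the gates. Against that cytotoxic group 1 of the 23 was higher (Maf) and 7 were lower.

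Lower than in naive-like CD8 cells was Runx3 (chr4:135120652-135177990, plus strand), the factor that silences Cd4 in CD8 cells, at 64.1 CPM in PHZ and 49.2 CPM in bleeding CD4 cells against 204 and 194 CPM (-1.89 ± 0.15, adjusted p = 1.6e-05). Ccr9, a chemokine receptor for the gut and thymus, stood at 2.76 and 7.94 CPM against 154 and 100.4 CPM. Cd226 was lower at 216 and 191 CPM against 434 and 366 CPM. Gm44174, a long non-coding RNA, was nearly absent, with 0 PHZ UMIs and 3 bleeding UMIs in CD4 cells against 259 and 260 CPM in CD8 cells. It is annotated at chr6:71353035-71373284 on the plus strand, between Cd8b1 (chr6:71322788-71337494) and Cd8a (chr6:71373427-71379173) on the same strand. Gm44175, in the same interval (chr6:71354351-71360829, minus strand), had 0 PHZ UMIs and 1 bleeding UMI in CD4 cells. Since the rule demanded 0 UMIs of the neighbouring Cd8 genes, neither is independent of it. 1700062C10Rik, Gria3, Gm45669, Fam241a, Adgrg5 and Epsti1 were the other 6 of the first 10.

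Genes of the naive state did not separate conventional CD4 from naive-like CD8 cells apart from Igfbp4 (336 and 245 CPM against 165 and 84.7 CPM, 1.31 ± 0.18, adjusted p = 0.00085), the 1 of 19 that passed. Their median log2 difference was 0.13. Lef1 (1354 and 1512 CPM against 1279 and 1301 CPM) and Tcf7 (598 and 555 CPM against 562 and 421 CPM) had adjusted p-values of 0.70 and 0.55 in edgeR's test. A p above the threshold does not show equal levels.

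**Figure D2:**
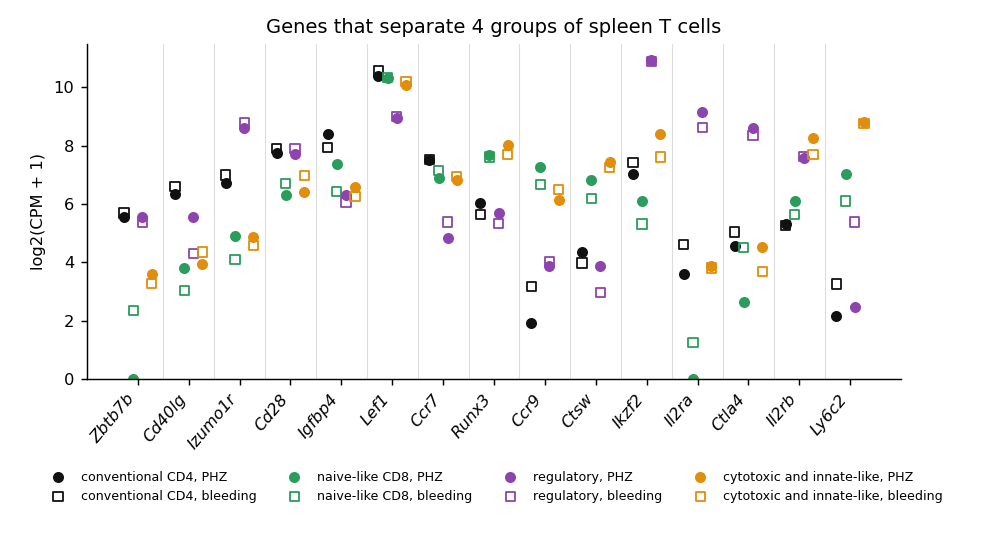
Levels of 15 genes, log2(CPM + 1), in 4 groups of spleen T cells, with filled circles for the PHZ library and open squares for the bleeding library. The CD4 genes Zbtb7b and Cd40lg stand high in conventional CD4 cells and low in naive-like CD8 cells, Runx3, Ccr9 and Ctsw show the opposite order, and Ikzf2, Il2ra and Ctla4 are highest in regulatory T cells.

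Against regulatory T cells the separation was wider: conventional CD4 cells were higher for 289 genes (2.83%) and lower for 324 (3.17%). Naive state genes were higher for 15 of 19 and lower for 0, with a median log2 difference of 1.02. Lef1 was at 1354 CPM in PHZ and 1512 CPM in bleeding conventional cells against 488 and 515 CPM in regulatory cells (1.69 ± 0.13, adjusted p = 8.2e-06). Ccr7 was at 181 and 182 CPM against 27.4 and 40.7 CPM (2.50 ± 0.23), Tcf7 at 598 and 555 CPM against 182 and 195 CPM (1.76 ± 0.18) and Satb1, a chromatin organiser, at 1073 and 1166 CPM against 424 and 251 CPM (1.99 ± 0.21). These 4 genes lay higher in both conventional sums than in both regulatory sums.

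Themis, a T cell receptor signalling protein known from thymic selection, had the smallest p, at 1212 and 1152 CPM in PHZ and bleeding conventional cells against 223 and 209 CPM in regulatory cells (2.65 ± 0.14, adjusted p = 7.1e-07). Of 23 genes of receptor signalling 6 were higher and 0 lower, among them Cd247, Lck, Lat and Rasgrp1. Pde3b, a phosphodiesterase, stood at 282 and 279 CPM against 13.7 and 11.9 CPM (4.70 ± 0.28). Cytosolic ribosomal protein genes were higher for 66 of 80 and lower for 1, Rps27l, with a median of 0.55, while against naive-like CD8 and against the cytotoxic group 0 of 80 passed in either direction.

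Regulatory genes were lower for 13 of 14, the side that the Foxp3 gate had divided. Il2ra, the high-affinity interleukin 2 receptor chain, stood at 11.03 and 23.2 CPM in PHZ and bleeding conventional cells against 565 and 391.6 CPM (-4.40 ± 0.28, adjusted p = 2.0e-06), and Ikzf2 (Helios) at 130 and 172 CPM against 1965 and 1877 CPM (-3.45 ± 0.23). In the PHZ library 1 member held 37.2% of the members' Ikzf2 UMIs. Ctla4, an inhibitory receptor, stood at 22.7 and 31.8 CPM against 388 and 322 CPM. Cells of the regulatory lineage in which no Foxp3 UMI was caught cannot be told apart from members by the rule. Of the memory and activation genes 10 of 23 were lower, among them S100a4, S100a6, Itgb1, Ahnak and Maf, and Id2 and Tmsb10 were higher. Summed over all members, Maf was thus higher in conventional cells than in CD8 cells and lower than in regulatory cells (-2.21 ± 0.21). Izumo1r took the same place, lower than in regulatory cells at 103 and 126 CPM against 392.1 and 439 CPM (-1.67 ± 0.19). These sums pool unlike members, of which 30 PHZ and 88 bleeding cells had a Maf UMI. In cluster 2, described below, Maf stood at 437 CPM in PHZ and 321 CPM in bleeding members. In clusters 0, 1 and 3 Maf stood at 0 to 22.9 CPM. Izumo1r stood at 287 and 374 CPM in cluster 2 and at 21.5 to 75.6 CPM in clusters 0, 1 and 3. These cluster values leave out the cells with foreign markers, also described below.

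Against T cells with cytotoxic genes, conventional CD4 cells were higher for 185 genes (1.81%) and lower for 353 (3.45%). The lower side held the cytotoxic and innate programme, on which 3 gate genes had divided the groups: Ctsw stood at 19.3 CPM in PHZ and 14.7 CPM in bleeding CD4 cells against 173 and 152 CPM (-3.30 ± 0.19), Il2rb at 38.6 and 37.0 CPM against 308 and 205 CPM (-2.72 ± 0.17) and Ly6c2 at 3.45 and 8.52 CPM against 448 and 431 CPM. Of 11 tested markers of natural killer and innate-like T cells 10 were lower and 0 higher. Th1 genes were lower for 8 of 9, Tbx21 by -3.35 ± 0.30 at 11.7 and 5.04 CPM against 86.8 and 61.6 CPM. Higher were St8sia6, Myo10, Pdlim4, Ly6c1, Tspan32, Izumo1r, Tesc, Nxpe3, Tgfbr3 and Igfbp4. Pdlim4 stood at 48.9 and 50.2 CPM in PHZ and bleeding CD4 cells against 4.21 and 2.59 CPM in the cytotoxic group (3.97 ± 0.30).

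Conventional CD4 cells were higher for 14 genes and lower for 15 than in each of the other 3 T cell groups. The 14 were A330093E20Rik, Myo10, Pdlim4, Cd40lg, Itgb3, Igfbp4, Itm2a, Tgfbr3, Cers6, Vipr1, Tesc, Bcl9, Znrf1 and Sgms1. Myo10, an actin motor, had 49.6 CPM in PHZ and 42.4 CPM in bleeding members against 1.80 to 4.56 CPM in the other 6 sums, and Tgfbr3, a co-receptor for transforming growth factor beta, had 199 and 225 CPM against 22.8 to 115 CPM. Cd40lg lay above all 3 groups with a smallest log2 difference of 1.94. Of the 15 lower genes, Itgae (the integrin CD103, 2.07 and 4.46 CPM) had the largest fitted gap and Ifngr1, a chain of the interferon gamma receptor, stood at 58.6 and 55.8 CPM against 91.9 to 168 CPM. Single cells held much of some sums. Of A330093E20Rik, first of the 14, 1 PHZ member held 48.6% and 1 bleeding member 37% of the members' UMIs in their library. Among the lower genes, 1 bleeding regulatory cell held 88.3% of Plac8 UMIs in its sum, and another held 95.7% of Nedd4. With cells of more than 40000 UMIs left out (3 naive-like CD8 and 1 regulatory, all bleeding), 13 of the 14 and 14 of the 15 were still called, and with DESeq2 8 of each.

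Neutrophil genes gave a case of the same kind within the members. S100a8, S100a9, Lcn2, Ngp, Camp and Ltf were called higher in conventional CD4 than in regulatory T cells, and 1 bleeding member held 7238 of the 7449 UMIs of the 10 neutrophil markers. That cell had 25015 UMIs and was not marked as a doublet by Scrublet. In the PHZ library the highest member held 6 of 178 such UMIs.

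Between the treatments, expression was close. Of 6224 genes measured at a mean of 20 CPM or more outside the 12 rule genes and haemoglobin, 123 were higher (1.98%) and 76 lower (1.22%) in PHZ than in bleeding members by at least 1.5-fold with an interval that excluded 1, together 199 genes or 3.2%. The median log2 ratio over all 6224 was 0.02, and 5% to 95% of genes lay between -0.36 and 0.44. Levels correlated across genes with Pearson's r of 0.979 on log2(CPM + 1), where genes are not independent replicates. Ratios of expression below are PHZ over bleeding.

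**Figure D3:**
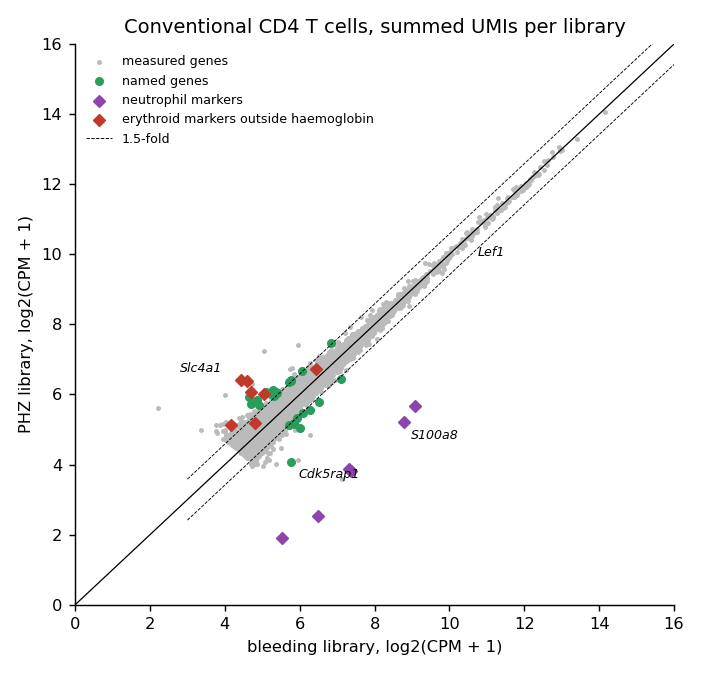
Levels of the 6224 measured genes in conventional CD4 T cells, log2(CPM + 1), with the PHZ library on the vertical and the bleeding library on the horizontal axis; the solid line marks equal levels and the dashed lines 1.5-fold. The neutrophil markers lie far below the line, and 1 bleeding cell holds nearly all their UMIs, while the 7 measured erythroid markers outside haemoglobin lie above it.

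Genes foreign to T cells were among the widest differences. Measured erythroid markers outside haemoglobin were higher in PHZ members for 5 of 7, among them Slc4a1, the red cell anion exchanger, at 84.8 CPM in PHZ and 20.5 CPM in bleeding members (ratio 4.13, 3.16 to 5.41), and Car2, a carbonic anhydrase, at 66.2 and 24.8 CPM (2.67). The highest 4 PHZ members held 46.2% of the 733 PHZ UMIs of these markers. The highest 4 bleeding members held 21.9% of 1264. The median log2 ratio of the 7 was 1.01, and 0.42 without the cells with 5 or more UMIs of neutrophil or erythroid markers. Haemoglobin itself took 1.04% of PHZ members' UMIs and 0.698% of bleeding members' UMIs. All 6 measured neutrophil markers were lower in PHZ members, with a median log2 ratio of -3.63, which became 1.56 once 21 PHZ and 22 bleeding members with 5 or more UMIs of neutrophil or erythroid markers were left out. Without those cells, chosen after seeing the data, 116 genes were higher and 78 lower. The 2 measured B cell genes differed: Ighm stood at 212 CPM in PHZ and 199 CPM in bleeding members (1.06, 0.933 to 1.21) and Igkc at 27.6 CPM in PHZ and 77.1 CPM in bleeding members (0.358, 0.252 to 0.496). The part of free or carried RNA in the Igkc difference was not tested.

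Of the T cell lists with 5 or more measured genes, the Bcl2 family of survival genes had the highest median. Bcl2, the main survival factor of resting T cells, stood at 864 CPM in PHZ and 649.5 CPM in bleeding members, a ratio of 1.33 (1.25 to 1.42) that stayed at 1.33 without the cells with foreign markers. Bcl2a1b was at 35.8 and 23.8 CPM (1.504, 1.07 to 2.10), though Bcl2a1b and Bcl2a1d are near-identical copies whose counts may be split, and at 1.31 without those cells. Bcl2l1 was at 42.1 and 24.4 CPM (1.72, 1.25 to 2.36), and at 1.09 without the cells with foreign markers. Of the 6 measured, 5 had a ratio above 1 and 2 were past the limit, with a median log2 ratio of 0.26 (0.19 without those cells) against 0.02 over all genes. Mcl1 had 200 CPM in PHZ and 196 CPM in bleeding members and Bax, a death effector, 65.5 and 78.8 CPM (0.831, 0.657 to 1.04).

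Genes of the naive state were close. Of 19 measured, 6 had a ratio above 1 and 0 were past 1.5-fold in either direction, and the summed list stood at 11015 CPM in PHZ and 11360 CPM in bleeding members (0.970, 0.953 to 0.987). Foxp1, which keeps naive cells at rest, had 1868 CPM in PHZ and 1970 CPM in bleeding members (0.948). Lef1 had a ratio of 0.896 (0.852 to 0.941). Igfbp4 had a ratio of 1.37 (1.23 to 1.53), and Il7r, the interleukin 7 receptor, stood at 614 CPM in PHZ and 537 CPM in bleeding members (1.14, 1.06 to 1.23). The quiescence genes, 14 measured, had a median log2 ratio of -0.07 and 0 past the limit.

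Memory and activation genes were also near even, with 11 of 18 above 1, 0 past the limit and a median log2 ratio of 0.05. Several members of lower level stood above 1: Cd44 at 86.9 CPM in PHZ and 67.4 CPM in bleeding members (1.29, 1.04 to 1.58), S100a6 at 81.3 and 59.1 CPM (1.38, 1.10 to 1.71), Id2 at 59.3 and 42.4 CPM (1.40, 1.08 to 1.80), Ahnak at 62.0 and 46.3 CPM (1.34, 1.04 to 1.71) and Maf at 87.5 and 66.4 CPM (1.32, 1.07 to 1.62). Those with the most UMIs did not: Tmsb10 stood at 2191 and 2282 CPM (0.960), Crip1 at 331 and 341 CPM and Emp3 at 260 and 294 CPM. The 5 genes named here as above 1 were picked from the list after their values were seen. Their UMIs lay in few cells. The 3 highest PHZ cells of each gene held from 21.4% (Cd44) to 50.8% (S100a6) of its PHZ UMIs. In bleeding members the 3 highest cells held from 7.76% (Cd44) to 36.7% (S100a6). S100a6 had a UMI in 21 PHZ and 55 bleeding members.

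Signalling lists were near even too. T cell receptor signalling had 13 of 23 above 1, 0 past the limit and a median of 0.04, with Ptprc (CD45) at 1936 and 1796 CPM in PHZ and bleeding members and Prkcq at 983 and 1025 CPM. Cd6, a receptor that tunes signalling and was chosen after its value was seen, had a ratio of 0.749 (0.651 to 0.859), at 173 and 231 CPM. Immediate early genes had a median of 0.05 over 14, among them Jund (229.6 and 239 CPM) and Nfkbia (147 and 108 CPM, 1.36, 1.15 to 1.59). Checkpoint and costimulation receptors had a median of -0.01 over 13, with Cd28 at 216 and 238 CPM. Cytokine receptors had a median of 0.04 over 16 and homing receptors 0.01 over 17, each with 0 past the limit.

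Relb, an NF-kappaB subunit of the alternative pathway (chr7:19606217-19629438, minus strand), was second among the genes named as higher in PHZ members. It stood at 66.2 CPM in PHZ and 33.1 CPM in bleeding members (1.998, 1.54 to 2.58), detected in 48 of 180 PHZ and 105 of 685 bleeding members. The ratio was 2.07 without the cells with foreign markers. In naive-like CD8 cells the PHZ over bleeding ratio was 0.877 (0.484 to 1.49), in regulatory T cells 1.53 (0.849 to 2.68), in T cells with cytotoxic genes 1.33 (1.05 to 1.68) and in B cells 1.004 (0.929 to 1.08).

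On the higher side 23 genes met the rule for naming and the first 15 are given, ranked by the interval bound nearest 1. Gpm6b came first at 60.0 CPM in PHZ and 24.02 CPM in bleeding members (2.50, 1.88 to 3.31), but only 13 PHZ members had a UMI and 3 cells held 58.6% of them. Mdfic was at 51.7 and 25.0 CPM (2.07, 1.54 to 2.77) and had a ratio of 2.21 in the cytotoxic group and 0.753 in B cells. It had a UMI in 32 PHZ and 62 bleeding members. Gpm6b and Mdfic were leading genes of cluster 2, described below, as was Phactr2, which was lower in PHZ members. Without cells with foreign markers, Gpm6b and Mdfic stood there at 153.5 and 131 CPM, against 1.79 and 5.57 CPM in the other clusters. Amn1 was at 69.6 and 38.4 CPM (1.82, 1.41 to 2.32) and Cd200r1, an inhibitory receptor, at 66.2 and 40.1 CPM (1.65, 1.28 to 2.11), with a ratio of 5.03 in the cytotoxic group. Vmn2r96, St6galnac3, Atrnl1, Ubap1, Tsc22d2, Dtx3l, Eml5, Sh3rf1, Fam120c and Atad1 had ratios between 1.52 and 1.999. In both libraries St6galnac3, Ubap1 and Tsc22d2 stood lower in members than in barcodes with 10 to 100 UMIs, taken as free RNA. In PHZ the levels were 178, 51.0 and 101 CPM against 254, 111 and 242 CPM. In bleeding they were 113, 29.2 and 65.9 CPM against 313, 77.2 and 166 CPM. How much of these counts is free RNA was not tested. Vmn2r96 is a vomeronasal receptor gene of a large multigene family, so its reads could belong to relatives.

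On the lower side 10 genes met the rule. Cdk5rap1, a mitochondrial tRNA-modifying enzyme (chr2:154335380-154373010, minus strand), was at 15.9 CPM in PHZ and 53.3 CPM in bleeding members (0.298, 0.186 to 0.456), with a UMI in 11.7% of PHZ and 27.7% of bleeding members. The ratio was also under 1 elsewhere, at 0.433 in naive-like CD8 cells, 0.344 in the cytotoxic group and 0.299 in B cells. Stmn1, a microtubule protein of dividing cells, was at 31.7 and 63.0 CPM (0.504, 0.362 to 0.687), but 3 bleeding cells held 31.4% of its bleeding UMIs. Its ratio was 0.194 in naive-like CD8 cells and 0.695 in regulatory cells, and on the other side of 1 in the cytotoxic group (1.83) and in B cells (1.74). Pfkfb3, a glycolytic regulator, was at 53.8 and 90.5 CPM (0.594, 0.462 to 0.757). Pfkfb3 stood at 1.59 in naive-like CD8 cells and at 1.07 in the cytotoxic group. Id3, an inhibitor of helper T cell differentiation factors, was at 34.5 and 56.4 CPM (0.611, 0.444 to 0.828), and Ift80, Mtmr12, Sos2, Phactr2 and Gm14085 lay between 0.608 and 0.651.

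The genes that define helper subsets differed widely in level. Bcl6, the factor of follicular helper cells, was the 1 gene of its list past the limit, at 22.1 CPM in PHZ and 36.4 CPM in bleeding members (0.606, 0.403 to 0.885). Of the follicular list, 6 of 9 measured had a ratio above 1 and the median log2 ratio was 0.15 (0.05 without the cells with foreign markers), with Slamf6 at 336 and 279 CPM (1.21), while Izumo1r had a ratio of 0.820 and Icos of 0.874. Tox stood at 859 and 773 CPM (1.11), but 3 cells held 25.5% of its PHZ UMIs, and the ratio was 1.02 without the cells with foreign markers and 0.998 without the highest 1% of cells. Cxcr5 and Pdcd1 had a mean under 20 CPM, at 12.4 and 13.8 CPM in PHZ members and 14.5 and 20.1 CPM in bleeding members. Of 6 measured regulatory T cell genes 1 had a ratio above 1 and 0 were past the limit, with a median log2 ratio of -0.16. That list summed to 454 CPM in PHZ and 547 CPM in bleeding members (0.830, 0.761 to 0.904). Ikzf2 had a ratio of 0.753 (0.640 to 0.883), and 3 cells held 64.9% of its PHZ UMIs. For Bcl6 a share of cells does not stand above the level in B cells, which use the gene themselves: after thinning each cell to 2000 UMIs, 3.91% of PHZ and 6.42% of bleeding members had a Bcl6 UMI, against 13.9% and 14.7% of PHZ and bleeding B cells.

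Shares of cells with a UMI were compared after that thinning, which kept 179 PHZ and 685 bleeding members. B cells, at a median of 5990 UMIs in PHZ and 5822 UMIs in bleeding before thinning, served as the comparison for free RNA, except where B cells may use a gene themselves. Gata3 was detected in 14.0% of PHZ members (9.25% to 19.9%) and 9.05% of bleeding members (7.01% to 11.5%), with 0% and 0.115% in B cells; before thinning the shares were 30% and 28.6%. Its level was 72.4 and 52.3 CPM in PHZ and bleeding members (1.38, 1.09 to 1.74). Tbx21 was found in 2.79% of PHZ members (0.913% to 6.398%) and 0.438% of bleeding members (0.0904% to 1.27%), against 0.631% and 0.777% of B cells. Before thinning, the UMIs were not spread evenly over the members. Without cells with foreign markers, 7 PHZ and 12 bleeding cells of the cluster described below as cluster 2 had a Tbx21 UMI, against 0 cells of either library in cluster 0. Clusters 1 and 3 each had 0 PHZ cells and 1 bleeding cell with one.

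Of the cytokines, those that define helper subsets were rarely detected. After thinning, Ifng was found in 2 of 179 PHZ and 3 of 685 bleeding members, and Il4 in 1 and 6. Il17a had 0 UMIs in either library, thinned or not, and the exact interval of the thinned cells allows up to 2.04% of PHZ and 0.537% of bleeding members with a UMI, which is a limit on detection and not on expression. Il21 had 0 UMIs after thinning, but before it 1.11% of PHZ and 0.438% of bleeding members had one. Tnf had a UMI in 18 PHZ and 56 bleeding members before thinning (22.1 and 15.1 CPM) and Lta in 21 and 59 (16.5 and 13.9 CPM), both named after their values were seen; 1 PHZ cell held 12 of the 32 PHZ UMIs of Tnf. The 4 of 22 cytokines and ligands with a mean of at least 20 CPM were Ltb, a lymphotoxin chain, at 537 and 567 CPM in PHZ and bleeding members, Tnfsf8 (132 and 111 CPM), Tgfb1 (84.1 and 90.1 CPM) and Cd40lg (80.7 and 96.7 CPM, 0.834, 0.676 to 1.02).

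Stress and metabolic lists had medians close to that of all genes. Type I interferon response genes had 16 of 33 above 1, 0 past the limit and a median of -0.05, with Ifi27l2a at 371 CPM in PHZ and 421 CPM in bleeding members (0.881, 0.8003 to 0.969). Heat shock genes had a median of 0.01 over 18. Hsph1, a chaperone of the heat shock family, was the 1 past the limit, at 39.98 and 20.9 CPM (1.91, 1.36 to 2.65), and Hsp90ab1 was at 847 and 694 CPM (1.22, 1.14 to 1.30). Antioxidant genes had a median of 0.01 over 19, with Gstp1 past the limit downwards at 20.7 and 38.0 CPM (0.545, 0.358 to 0.803). The integrated stress response (median -0.07 over 6), hypoxia genes (0.03 over 10), glycolysis (0.00 over 12), nuclear oxidative phosphorylation genes (0.05 over 43), mitochondrially encoded genes (0.07 over 13), glucocorticoid response genes (-0.07 over 9), MHC class I genes (-0.05 over 15) and ribosomal protein genes (-0.04 over 80) each had 0 past the limit.

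Of 10 measured iron genes 2 were past it: Tfrc, the transferrin receptor, at 42.1 CPM in PHZ and 23.2 CPM in bleeding members (1.81, 1.31 to 2.48), and Slc25a37, the mitochondrial iron importer, at 77.2 and 25.4 CPM (3.04, 2.34 to 3.95). Both are also abundant in erythroid cells, and without the cells with foreign markers the ratios were 1.24 and 2.08. The part of carried-over erythroid RNA in them was not tested. The ferritins Fth1 (753 and 806 CPM) and Ftl1 (521 and 518 CPM) were near even.

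Cycling genes were low. The 6 measured S phase genes had a median log2 ratio of -0.25, with Slbp at 31.0 and 48.0 CPM in PHZ and bleeding members (0.646, 0.459 to 0.890) and Mcm7 at 16.5 and 25.8 CPM (0.642, 0.397 to 0.997) past the limit. Top2a was past it at 15.9 and 32.7 CPM (0.484, 0.299 to 0.751), yet without the highest 1% of cells of each gene the ratio was 1.47. Mki67 went the other way at 39.98 and 27.7 CPM (1.44, 1.04 to 1.97), and stood at 0.887 without the cells with foreign markers. No direction is read from these genes.

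**Figure D4:**
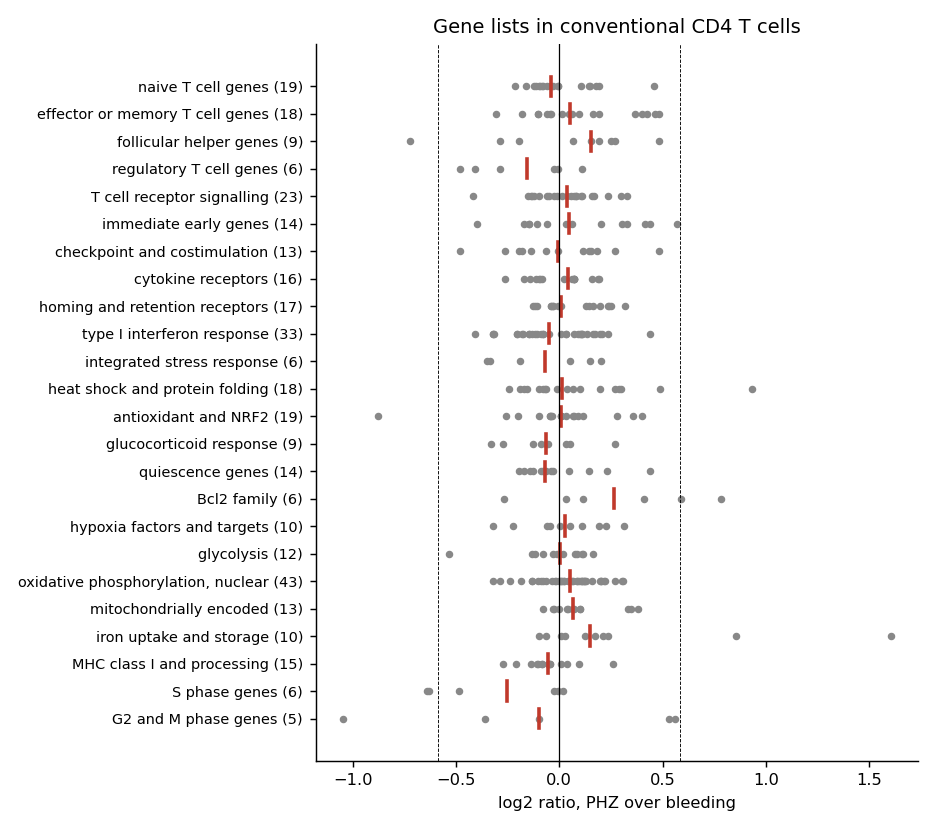
Log2 ratios of PHZ over bleeding in conventional CD4 T cells for the measured members of 24 gene lists (grey points, the number of genes in brackets), with the median of each list as a red bar and dashed lines at 1.5-fold. Most medians lie within 0.15 of 0, the Bcl2 family has the highest (0.26) and S phase genes the lowest (-0.25).

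Clustering the members of both libraries together (Leiden, resolution 0.5) gave 5 clusters, whose genes describe the clusters and are not tested. Cluster 0, with 37.8% of PHZ members and 45.1% of bleeding members, had Igfbp4 (383 CPM, against 182 CPM in the other clusters), Sema4a, Pdlim4 and Itm2a among its leading genes. Cluster 1, with 23.3% and 25.8%, had Hdac9, the interferon response gene Ifit1, 4933406I18Rik and A330040F15Rik as its first 4 genes, and 1 bleeding member held 43.4% of the bleeding members' Hdac9 UMIs. The interferon list as a whole was not highest there: without cells with foreign markers it summed to 3646 CPM in PHZ and 3890 CPM in bleeding members of cluster 1, and to 4028 and 4311 CPM in cluster 2. Cluster 3, with 15% and 11.2%, had Il7r (1362 CPM, against 451 CPM in the other clusters), Klf3 and Klf2 (890 and 376 CPM), genes of resting cells, among its leading genes. S1pr1 of the naive list was not highest there in both libraries. Without cells with foreign markers it stood at 418 CPM in PHZ and 290 CPM in bleeding members of cluster 3, and at 296 and 306 CPM in cluster 1. Cluster 4 held 4 PHZ and 6 bleeding cells and was led by the erythroid genes Specc1, Sox6, Tmcc2 and Slc4a1.

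Cluster 2 stood apart as the one with the least naive and the most memory expression. With all cells its first genes were those of the 1 neutrophil-marked bleeding cell, so it is left without a name. Without cells with foreign markers it was led by S100a6 (318 CPM, against 1.59 CPM in the other clusters), S100a4, Maf, Nrp1, Ikzf2 (746 and 30.6 CPM), Itgb1, Sostdc1, Tox2 and Pdcd1, genes of memory, follicular helper and regulatory cells in one cluster. Sostdc1 came from few cells: 1 PHZ member held all 24 PHZ UMIs, and 3 of 8 bleeding members with a UMI held 67% of 100. The naive list summed to 6214 CPM in PHZ and 6208 CPM in bleeding members of cluster 2, against 10212 to 16498 CPM in clusters 0, 1 and 3. The memory and activation list summed to 7214 and 7243 CPM there, against 3509 to 4449 CPM in clusters 0, 1 and 3. The values of the PHZ and bleeding libraries lay close to each other within each cluster.

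Cluster 2 held 39 of 180 PHZ members (21.7%, 15.9% to 28.4%) and 116 of 685 bleeding members (16.9%, 14.2% to 19.96%), a ratio of 1.28 with an interval of 0.866 to 1.85. For the other clusters the ratios were 0.837 (0.634 to 1.09), 0.903 (0.629 to 1.27), 1.33 (0.827 to 2.09) and 2.54 (0.527 to 10.7) in the order 0, 1, 3 and 4. Each of these 5 intervals included 1, which does not show that the make-up was equal, and other clusterings did not all give this. With Scrublet-marked cells removed the members fell into 4 clusters, of which 1 had an interval without 1: it held 28 PHZ cells (15.9%) and 189 bleeding cells (27.8%), a ratio of 0.572 (0.370 to 0.854). At resolution 1 it was 1 of 10, with 6 PHZ cells (3.33%) and 65 bleeding cells (9.49%), a ratio of 0.351 (0.124 to 0.807). At resolution 0.3 it was 0 of 3 and with another seed 0 of 5. These ratio intervals also treat cell counts as Poisson counts and are too wide for large clusters, so the counts of intervals without 1 may be too low. The largest cluster at resolution 0.3 held 106 PHZ cells (58.9%) and 478 bleeding cells (69.8%), a ratio of 0.844 (0.677 to 1.04). For that cluster even shares cannot be read from the interval. The clusters are rebuilt under each setting, so those of different settings are not the same cells.

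**Figure D5:**
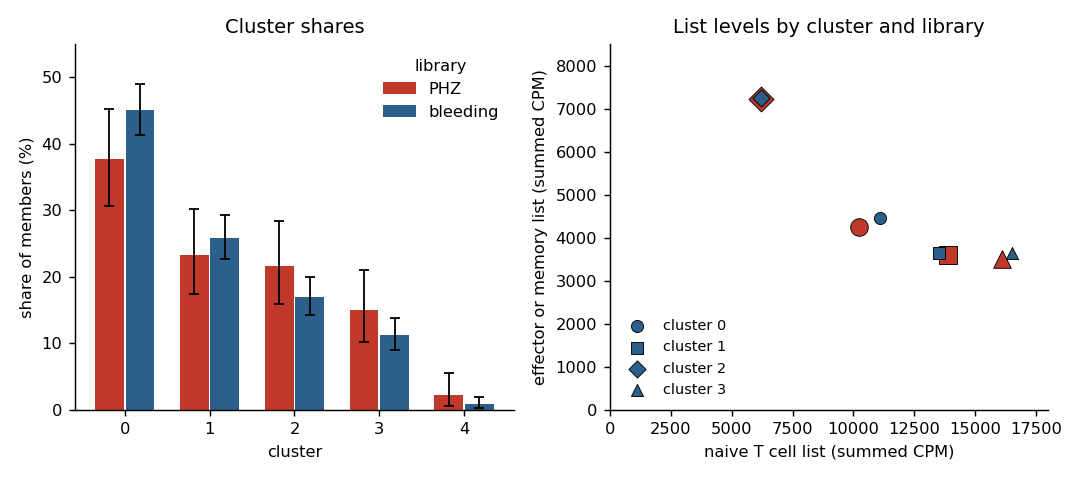
Left, share of PHZ and bleeding members in each of the 5 clusters (percent, with exact 95% intervals that cover counting error). Right, summed CPM of the naive list and of the memory and activation list in clusters 0 to 3 without cells with foreign markers (red PHZ, blue bleeding), where cluster 2 lies apart, with the lowest naive and the highest memory and activation sums in both libraries.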

How the data were processed

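Each treatment gave 1 droplet-based library of live spleen cells. The deposited files hold raw UMI counts of 32285 genes in every barcode. Per the submitters' processing notes, Cell Ranger 7.0.0 and mm10 were used, while the file headers name Cell Ranger 4; the handling of intronic reads is not given in the sources used here. Of the gene identifiers, 32235 matched GENCODE M21, which gave GRCm38 positions.

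The members and all lists were chosen with earlier results of these data known. UMIs were summed per library and scaled to the total outside 10 haemoglobin genes. A gene was measured at a mean of at least 20 CPM and called past 1.5-fold with an exact conditional 95% interval that excluded 1. Genes named between treatments had at least 50 CPM and 30 UMIs where higher, and there reached 20% of their top level among B, erythroid, neutrophil and monocyte or macrophage cells, with rule genes and immunoglobulin, T cell receptor, haemoglobin, mitochondrial, ribosomal and sex-linked genes left out; the first 15 per direction are given. Between T cell groups the first 10 per direction by p were named, at least 2-fold and the same way in both libraries. Of each list, the 4 members with the most UMIs, called members and defining T helper genes could be named. T cell groups were tested with edgeR 4.0.16 (quasi-likelihood, threshold 0.05, R 4.3.3), with DESeq2 1.42.0 as an alternative. Clusters used scanpy 1.11.5 and leidenalg 0.10.2 (2000 variable genes, 30 components, 15 neighbours), with resolutions 0.3 and 1, another seed and the removal of Scrublet-marked cells as alternatives. Doublets were limited by the gate, with Scrublet calls as an alternative. The ratio and edgeR procedures were tested on simulated data. Some genes that met these rules are not reported here.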

Additional observations from a re-analysis of the deposited data

How the results depend on the processing

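Limits first: with 180 PHZ members the counting error is set by that library, and genes under 20 CPM were not compared between treatments. No paired analysis was possible because each treatment has 1 library and the labels give no replicate numbers, and leaving out a replicate would leave no comparison. The share ratio stayed between 0.537 and 0.579 under changes of cell filters, gate and doublet removal. It was 0.5005 without cells with foreign markers, which were left out of the members but not of the denominator (159 of 3248 PHZ and 663 of 6778 bleeding cells). The ratio was 0.396 over all cells, 0.431 after thinning to 2000 UMIs and 1.08, on the other side of 1, over T cells. The counts of 123 genes higher and 76 lower in PHZ became 29 and 181 without the 3 highest cells of each gene (3 cells are a larger part of the smaller library, and the median of all genes then shifted to -0.09), 223 and 156 at a minimum of 10 CPM and 26 and 10 at a minimum of 50 CPM. The other alternatives gave 106 to 172 higher and 63 to 83 lower. Of the 25 genes named between treatments, 11 were called under every alternative run, and no direction turned. Calls were lost for 9 genes without the 3 highest cells and for 7 without the cells with foreign markers. Tsc22d2 stood at 0.22 on the log2 scale without Scrublet-marked cells, against 0.62.

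Counts between T cell groups moved more than the genes named, of which 59 of 60 were called under every alternative; Ccl4 against the cytotoxic group was not called with DESeq2. DESeq2 called 81 higher and 82 lower against naive-like CD8 cells, and 95 and 219 against the cytotoxic group. Without a filter on low counts there were 304 and 427 against CD8, 474 and 548 against regulatory and 300 higher against cytotoxic cells. Without the library term 96 were higher than in CD8 cells. A fit of only the groups compared gave 72 and 73 against CD8 and 830 and 999 against cytotoxic cells. Scrublet removal gave 262 lower against CD8. Without cells with foreign markers there were 233 higher against CD8, 493 lower against regulatory, and 412 higher and 563 lower against cytotoxic cells. Without cells of more than 40000 UMIs there were 266 lower against CD8, and 391 higher and 588 lower against cytotoxic cells. These last cell sets were chosen after seeing the data, as was the removal of the highest 1% of cells, and the cause of the moved counts was not tested.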
